A study of Mus musculus with 9 samples.

Results

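The 6 Myb and Myc family genes of the mouse, *Myb*, *Mybl1*, *Mybl2*, *Myc*, *Mycn* and *Mycl*, were examined in mammary tumors treated with the PARP inhibitor Talazoparib (TLZ). They were chosen by name as families of transcription factors, with earlier results of these data known, and are 6 of the 35275 genes in the table of counts. Tumors came from Brca1Co/Co;MMTV-Cre;p53+/- mice, in which every group, saline included, carried conditional Brca1 alleles, 1 null p53 allele and a Cre recombinase driven by the MMTV promoter in mammary epithelium. When tumors reached a few millimeters in diameter, mice received i.v. saline, free Talazoparib i.v. (i.v. TLZ) or Talazoparib in liposomal nanoparticles (NanoTLZ), as 5 doses given 3 times a week. Both drug groups received 0.33 mg/kg per dose. RNA of 3 tumors per group was sequenced. Ages were not given for these tumors. The tumors of a group came from separate mice according to the study, although the labels do not tie tumors to mice. The comparisons ask how the Myb and Myc transcripts differ between treated and untreated tumors and between the formulations.

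The Myb proteins bind the same short DNA site through repeated domains but work in different cells. c-Myb, the product of *Myb*, keeps blood progenitors and colonic crypt cells immature and is also found in some mammary tumors. A-Myb, from *Mybl1*, is best known for switching on meiotic genes in the testis, and it is made in proliferating mammary epithelium. B-Myb, from *Mybl2*, is made in nearly every dividing cell, where it joins the MuvB complex and, with FoxM1, turns on the genes of late G2 and mitosis. The Myc proteins pair with Max at E boxes and raise the expression of genes for ribosomes, nucleotides and metabolism. c-Myc, from *Myc*, is the widely made member, whereas N-Myc (*Mycn*) is found mainly in embryonic, neural and neuroendocrine cells and L-Myc (*Mycl*) in lung, neuroendocrine and dendritic cells.

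Total counts per tumor ranged from 17538380 to 21194980, and all 6 genes passed the filter on low counts, with 7 to 4436 counts per tumor. Epithelial markers were abundant, with a summed level of 4360 to 8370 CPM (counts scaled to the size of the library) in saline tumors, 5150 to 6120 CPM in i.v. TLZ tumors and 3580 to 5230 CPM in NanoTLZ tumors. The floxed *Brca1* was still counted, at 29.6 to 42.7 CPM in saline and 9.46 to 31.5 CPM in treated tumors, and since the place of the reads in the gene is not given, this level does not check the deletion. Saline tumor 3 stood apart from the other tumors. Its mean Spearman correlation with the other 8 was 0.867, against 0.916 to 0.947 for every other tumor, and 25.7% of all tested genes had their highest level there. It was also the highest tumor for *Myb*, *Mybl2*, *Myc* and *Mycn*, while i.v. TLZ tumor 3 was the highest for *Mybl1* and *Mycl* and for 8.13% of all tested genes. Markers of skeletal muscle summed to 630 CPM in saline tumor 3, to 26.9 and 174 CPM in the other saline tumors and to 2.02 to 29.9 CPM in treated tumors. The difference in muscle markers was not confined to saline tumor 3. In each treatment 5 of the 6 muscle genes were lower without overlap, against 5.2% and 8.13% of all tested genes. Without saline tumor 3 their median log2 fold changes were still -6.29 in i.v. TLZ and -6.23 in NanoTLZ. The values of the 6 Myb and Myc genes against saline are also given without saline tumor 3 or i.v. TLZ tumor 3, whichever moved them most. In bulk RNA, fewer cells of a type and less RNA per cell cannot be told apart.

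*Myb* (ENSMUSG00000019982) lies on the minus strand of chromosome 10 from 21124935 to 21160984, *Mybl1* (ENSMUSG00000025912) on the minus strand of chromosome 1 from 9667415 to 9700209, and *Mybl2* (ENSMUSG00000017861) on the plus strand of chromosome 2 from 163054687 to 163084688 (GRCm38, GENCODE M21). *Myc* (ENSMUSG00000022346) lies on the plus strand of chromosome 15 from 61985391 to 61990374, *Mycn* (ENSMUSG00000037169) on the minus strand of chromosome 12 from 12936093 to 12941914, and *Mycl* (ENSMUSG00000028654) on the plus strand of chromosome 4 from 122995652 to 123002485. RefSeq promoters (GRCm38.p6) were found for 4 of the 6 genes, *Myb*, *Mybl2*, *Mycn* and *Mycl*, and the 250 bases before each start were searched on both strands. E2F factors, which switch genes on at the entry into S phase, bind sites with a GCG core, and such a site in the *Mybl2* promoter is known to keep the gene silent in resting cells. The 3 promoters that hold the core TTGGCG are shown, with the core in capitals, so that its place before each start can be compared. They are chr10:21160985-21161234 for *Myb*, chr2:163054385-163054634 for *Mybl2* and chr12:12941915-12942086 for *Mycn*, each read 5′ to 3′ on the strand of its gene. For *Mycn*, 78 bases of the window lie inside the gene of the other annotation and are not shown.
Myb: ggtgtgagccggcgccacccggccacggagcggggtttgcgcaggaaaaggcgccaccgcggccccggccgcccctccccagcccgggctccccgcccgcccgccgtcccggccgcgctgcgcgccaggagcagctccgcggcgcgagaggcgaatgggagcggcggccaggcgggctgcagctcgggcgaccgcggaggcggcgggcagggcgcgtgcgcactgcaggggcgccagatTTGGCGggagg
Mybl2: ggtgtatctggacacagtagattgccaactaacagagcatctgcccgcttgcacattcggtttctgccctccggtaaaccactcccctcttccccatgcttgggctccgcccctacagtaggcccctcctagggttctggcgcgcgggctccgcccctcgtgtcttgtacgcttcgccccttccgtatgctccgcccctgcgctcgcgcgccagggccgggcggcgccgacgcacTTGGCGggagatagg
Mycn: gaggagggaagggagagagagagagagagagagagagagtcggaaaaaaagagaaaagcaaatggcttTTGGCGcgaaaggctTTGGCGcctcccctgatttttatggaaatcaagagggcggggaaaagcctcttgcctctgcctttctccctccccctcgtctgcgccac
The core began 11 bases before the start of *Myb*, 15 bases before that of *Mybl2*, and 182 and 167 bases before that of *Mycn*. TTGGCG was present in 5.87% of 32851 promoters of the same length, and it was added to the search after the sequences had been seen. Of the other motifs searched, TAACNG, a Myb site, was found once each in *Mybl2*, 221 bases before the start, and in *Mycn*, 36 bases before the start, against 19.8% of all promoters. The cell cycle homology region TTTGAA was found in *Mycn*, 14 bases before the start, against 16.0% of all promoters. The E box CACGTG (6.02% of all promoters), the E2F core GCGGGAA (3.82%), which can overlap TTGGCG by 3 bases, and the Myb site CAACNG (29.3%) were not in these 4 windows. The *Mycl* window, chr4:122995681-122995930, lies inside the gene as GENCODE M21 draws it and held none of the 6 motifs. The *Myb* window was 81.2% G and C, against a median of 52.4% over all promoters, with 65.6% for *Mybl2*, 63.6% for *Mycl* and 54.8% for *Mycn*.

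*Myc* was the most abundant of the 6 transcripts in every tumor. Per kilobase of exon, its mean over the 9 tumors was 47.3 CPM, above 93.4% of tested genes. *Mybl2* followed with 7.84, *Mybl1* with 3.52, *Mycl* with 2.49, *Mycn* with 1.19 and *Myb* with 0.812 CPM per kilobase, the last above 18.1% of tested genes. In the saline group, *Myc* had 49.0 ± 22.8 (SD, n = 3) and *Mybl2* 9.85 ± 3.8 CPM per kilobase, and neither overlapped with its neighbor in the order. *Mybl1* had 4.05 ± 0.547, *Mycn* 2.27 ± 2.92, *Myb* 1.91 ± 2.26 and *Mycl* 1.69 ± 0.657 CPM per kilobase, and the ranges of each neighboring pair among these overlapped. In the i.v. TLZ group the order was *Myc* (46.8 ± 12.4), *Mybl2* (7.48 ± 3.81), *Mybl1* (4.31 ± 4.14), *Mycl* (4.12 ± 4.64), *Myb* (0.343 ± 0.239) and *Mycn* (0.207 ± 0.106 CPM per kilobase). Only *Myc* and *Mybl2*, and *Mycl* and *Myb*, did not overlap as neighbors there. In the NanoTLZ group, *Myc* (46.1 ± 7.33), *Mybl2* (6.18 ± 1.73) and *Mybl1* (2.20 ± 0.500 CPM per kilobase) did not overlap, *Mybl1*, *Mycl* (1.65 ± 0.166) and *Mycn* (1.09 ± 0.682) overlapped with their neighbors, and *Myb* (0.185 ± 0.099 CPM per kilobase) was lowest in every tumor. The plot of levels per length shows that *Myc* and *Mybl2* led in all 3 groups, while *Mycl* had the lowest mean of the saline group, *Mycn* that of the i.v. TLZ group and *Myb* that of the NanoTLZ group.

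**Figure D1:**
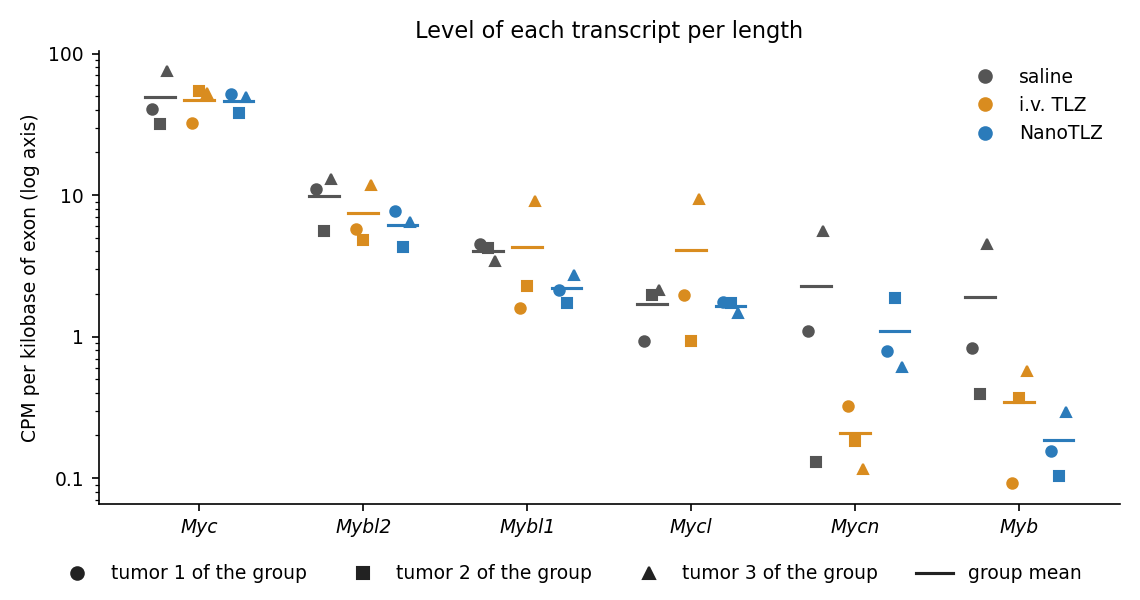
Level of each transcript in CPM per kilobase of exon (log axis), with each tumor as a point, colors for the groups, shapes for the tumor number and short lines for group means. *Myc* lay between 31.8 and 74.9 CPM per kilobase and was above the other 5 genes in all 9 tumors, while the highest tumor was 48.8-fold above the lowest for *Myb* and 48.7-fold for *Mycn*.

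The spread between tumors also differed among the genes. In saline tumors the SD of log2 CPM was 2.57 for *Mycn*, larger than that of 97.9% of tested genes, and 1.78 for *Myb*, larger than that of 93.5%. For *Mybl1* it was 0.20, larger than that of only 8.98%. In i.v. TLZ tumors *Mycl* (1.69) and *Mybl1* (1.32) had the largest SDs of the 6, above those of 95.3% and 91.1% of tested genes. *Myc* was in the middle of the distribution in saline tumors (0.64, above 54.1%) and had an SD of 0.24 in NanoTLZ tumors.

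*Myb* had the largest difference of the 6 between NanoTLZ and saline. Its level was 7.38, 3.53 and 40.2 CPM in saline tumors 1 to 3, 0.824, 3.28 and 5.09 CPM in i.v. TLZ tumors, and 1.40, 0.928 and 2.64 CPM in NanoTLZ tumors. All NanoTLZ tumors were below all saline tumors, as for 8.13% of all tested genes, whereas the i.v. TLZ tumors overlapped with saline, and saline tumor 3 was 5.44-fold above the next tumor. NanoTLZ was 10.3-fold lower than saline by the means, with a log2 fold change of -3.36 (SE 0.99), an unadjusted p of 0.00666 and an adjusted p of 0.552 in edgeR. For i.v. TLZ the log2 fold change was -2.48 (SE 0.95, unadjusted p = 0.0258, adjusted p = 0.444), and for both treated groups together it was -2.92 (SE 0.75, unadjusted p = 0.0031, adjusted p = 0.277). DESeq2 called *Myb* in NanoTLZ versus saline, with an adjusted p of 0.0263 fitted to all 9 tumors and 0.012 fitted to the 2 groups, and in the treated tumors together (0.011). It did not call it in i.v. TLZ (0.143 and 0.298), and over 18 alternatives the adjusted p of NanoTLZ versus saline ranged from 0.012 to 0.901. Without saline tumor 3 the log2 fold changes were -0.81 for i.v. TLZ and -1.68 for NanoTLZ. Among the other cells that use c-Myb are erythroid precursors, and their markers were read beside it. The 5 erythroid markers summed to 23.2 to 59.3 CPM in saline tumors, 3.14 to 22.2 CPM in i.v. TLZ tumors and 1.39 to 8.69 CPM in NanoTLZ tumors, with *Hba-a2* and *Hbb-bt* at 0 in some tumors. edgeR called none of the 4 that were tested, and 0 in i.v. TLZ and 2 in NanoTLZ were lower at an unadjusted p under 0.05, against 5.47% and 5.49% of all tested genes. All 4 had a log2 fold change below 0 in both treatments, against 52.4% and 56.1% of all tested genes. DESeq2 called *Hbb-bs* lower in NanoTLZ, fitted to all 9 tumors and to the 2 groups, and in both treated groups together. In these fits it called 0.55%, 0.949% and 1.71% of the genes it gave an adjusted p. The 9 markers of T and NK cells, other users of c-Myb, summed to 9.32 to 28.5, 7.70 to 38.2 and 22.7 to 57.9 CPM, with none at 0. They went the other way, with 7 of 9 higher in i.v. TLZ and 9 of 9 in NanoTLZ and median log2 fold changes of 0.37 and 1.72. Neither edgeR nor DESeq2 called any. In edgeR 0 and 1 of them were higher at an unadjusted p under 0.05, against 4.91% and 3.51% of all tested genes. The part of these cells in the level of *Myb* was not tested.

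**Figure D2:**
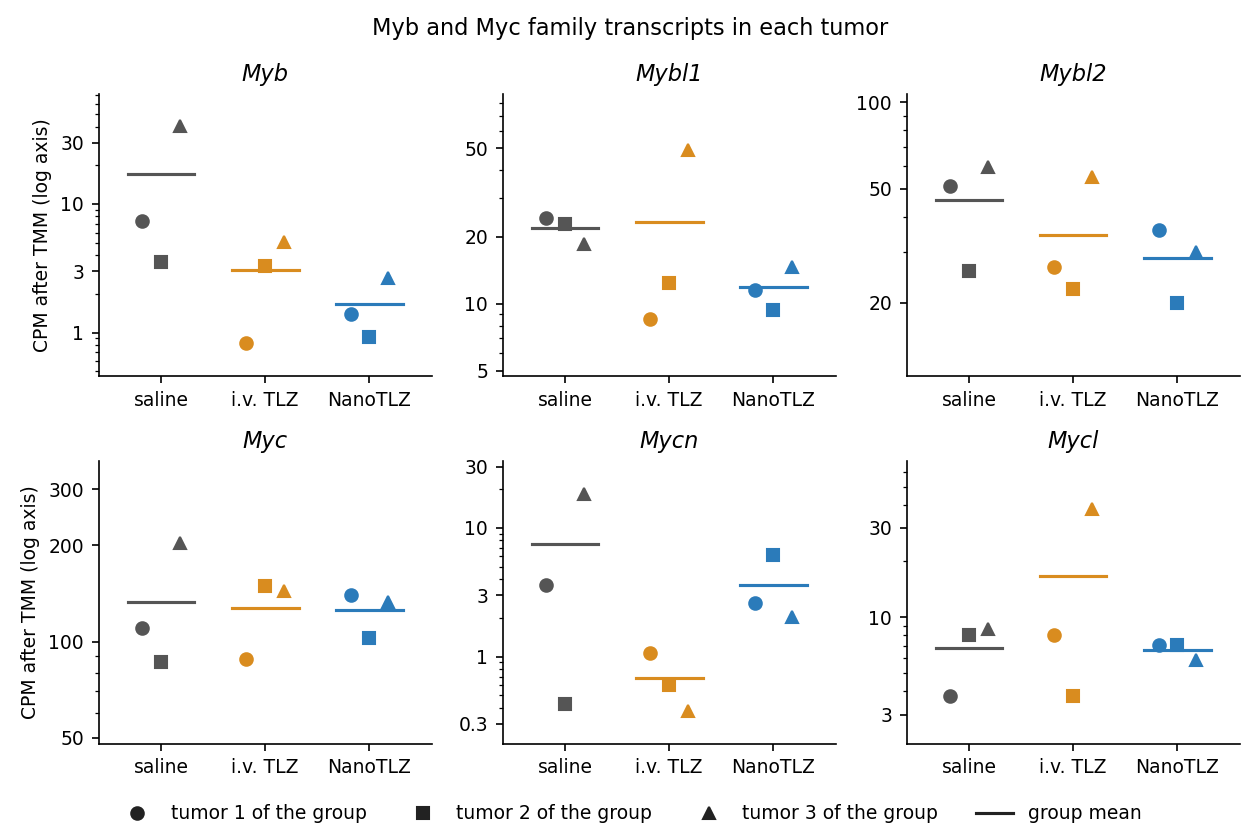
CPM after TMM normalization of each of the 6 genes (1 panel each, log axes) in every tumor, by group. Shapes give the tumor number within a group and lines the group mean. *Myb* in NanoTLZ (0.928 to 2.64 CPM) lies below all saline tumors (3.53 to 40.2 CPM), and *Myc* overlaps between all groups.

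Most genes that work with or under c-Myb had smaller differences. Of the 9 cofactors and kinases of c-Myb (among them *Crebbp*, *Ep300* and *Kmt2a*), 7 were lower in i.v. TLZ and 6 in NanoTLZ than in saline, with medians of -0.36 and -0.39 on the log2 scale, against -0.03 and -0.09 over all tested genes. None was called by edgeR, DESeq2 or limma-voom, and at an unadjusted p under 0.05 edgeR had 1 of the 9 lower in i.v. TLZ and 0 in NanoTLZ, where 5.47% and 5.49% of all tested genes were lower at that level. *Hipk2*, a kinase that marks c-Myb for degradation, had 66.7 ± 3.26 CPM in saline, 42.4 ± 11.8 with i.v. TLZ and 47.3 ± 5.65 with NanoTLZ (SD, n = 3), with no overlap between treated and saline tumors, as for 2.66% of all tested genes in that direction, and a log2 fold change of -0.58 (SE 0.22, adjusted p = 0.338) for both treated groups. Of the 7 known c-Myb targets, 5 were tested, 2 of these 5 were lower in i.v. TLZ and 3 in NanoTLZ, and the medians were 0.29 and -0.01. *Rag2* had no count and *Elane* at most 31. *Kit*, the stem cell factor receptor and also a marker of mammary luminal progenitors, had the largest difference of these 5. Its level was 315, 291 and 416 CPM in saline, 134, 122 and 81.5 CPM in i.v. TLZ, and 164, 179 and 165 CPM in NanoTLZ tumors. Every treated tumor was below every saline tumor, again as for 2.66% of all tested genes. The log2 fold change was -1.60 (SE 0.28, adjusted p = 0.251) in i.v. TLZ and -1.01 (SE 0.28, adjusted p = 0.552) in NanoTLZ, and DESeq2 called *Kit* in i.v. TLZ and in both treated groups together.

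*Mybl1* was lower in NanoTLZ tumors than in saline tumors but not evenly in i.v. TLZ. It had 24.3, 22.8 and 18.6 CPM in saline, 8.53, 12.4 and 49.0 CPM in i.v. TLZ, and 11.5, 9.39 and 14.7 CPM in NanoTLZ tumors. Saline tumors lay close together and above 5 of the 6 treated tumors, and i.v. TLZ tumor 3 was above all others. The log2 fold change in NanoTLZ was -0.88 (SE 0.58, unadjusted p = 0.16, adjusted p = 0.633), and -0.96 (SE 0.64) without saline tumor 3. In i.v. TLZ it was 0.09 (SE 0.57, adjusted p = 0.967) with all tumors and -1.05 (SE 0.38, adjusted p = 0.405) without i.v. TLZ tumor 3. For the treated groups together edgeR gave -0.40 (SE 0.49, unadjusted p = 0.439, adjusted p = 0.752) with all tumors. Without i.v. TLZ tumor 3 it gave -0.95 (SE 0.29, unadjusted p = 0.0104, adjusted p = 0.289). Leaving out that tumor removed the only treated tumor above the saline tumors. The values without it, also in i.v. TLZ alone, therefore do not test whether the groups differed. No fit called the gene in any comparison.

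*Mybl2* overlapped between all groups. It had 51.3, 25.9 and 59.7 CPM in saline, 26.6, 22.4 and 54.9 CPM in i.v. TLZ, and 35.9, 20 and 30 CPM in NanoTLZ tumors. The highest levels were in saline tumors 1 and 3 and in i.v. TLZ tumor 3. The log2 fold change was -0.40 (SE 0.43, adjusted p = 0.77) in i.v. TLZ and -0.67 (SE 0.43, adjusted p = 0.628) in NanoTLZ, and it was below 0 against saline under every alternative, from -0.88 to -0.14 and from -0.95 to -0.40. Without i.v. TLZ tumor 3 it was -0.88 (SE 0.42) in i.v. TLZ and -0.64 (SE 0.37) in NanoTLZ. Without saline tumor 3 it was -0.14 (SE 0.46) and -0.40 (SE 0.46).

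The 13 other genes of the MuvB and DREAM complexes, in which B-Myb and the E2F4 and p130 repressors exchange places on the MuvB core, had a log2 fold change below 0 for 10 of 13 in each treatment, against 52.4% and 56.1% of all tested genes, with medians of -0.35 in i.v. TLZ and -0.32 in NanoTLZ. None was called by edgeR, DESeq2 or limma-voom, and 2 and 3 of them were lower at an unadjusted p under 0.05 in edgeR, against 5.47% and 5.49% of all tested genes. *Foxm1*, the partner of B-Myb in late G2, had 76.3 ± 53.3 CPM in saline, 32.3 ± 10.5 with i.v. TLZ and 35.4 ± 4.43 with NanoTLZ (SD, n = 3), and every treated tumor was below every saline tumor, which was so for 2.66% of all tested genes. Its log2 fold change was -1.24 (SE 0.46, adjusted p = 0.443) in i.v. TLZ and -1.11 (SE 0.46, adjusted p = 0.552) in NanoTLZ, and with saline tumor 3 left out it was -0.48 (SE 0.32) and -0.33 (SE 0.32).

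The 25 G2/M genes bound by B-Myb and FoxM1 had the largest median difference from saline of the 8 lists examined. All 25 had a lower level in i.v. TLZ and all 25 in NanoTLZ, where 52.4% and 56.1% of all tested genes had a log2 fold change below 0. The median was -1.11 (from -2.09 to -0.45) in i.v. TLZ and -1.23 (from -2.26 to -0.53) in NanoTLZ. edgeR called none of them, and at an unadjusted p under 0.05 it had 18 lower in i.v. TLZ and 20 in NanoTLZ, where 5.47% and 5.49% of all tested genes were lower at that level. DESeq2 called 2 (*Cenpe*, a kinesin named here after its values were seen, and *Top2a*) in i.v. TLZ and 0 in NanoTLZ when fitted to all 9 tumors, 1 in each when fitted to the 2 groups, and limma-voom called 0. Of all genes given an adjusted p, DESeq2 called 1.13% and 0.55% on all 9 tumors, and 0.506% and 0.949% on the 2 groups. The groups did not overlap for 6 of the 25 in i.v. TLZ and for 17 of the 25 in NanoTLZ, where this was so for 5.2% and 8.13% of all tested genes in that direction. *Top2a*, the topoisomerase that untangles chromosomes, had 332 ± 94.1 CPM in saline, 88.7 ± 19.8 with i.v. TLZ and 144 ± 12.6 with NanoTLZ (SD, n = 3). Its log2 fold change was -1.90 (SE 0.30, adjusted p = 0.251) and -1.20 (SE 0.29, adjusted p = 0.552). *Aurkb*, the kinase of the chromosomal passenger complex, had 46.7 ± 37.0, 17.8 ± 4.90 and 14.7 ± 2.01 CPM, *Nek2*, a centrosome kinase, 75.5 ± 17.7, 36.7 ± 19.7 and 34.9 ± 2.82 CPM, and *Hmmr*, a spindle protein, 39.6 ± 26.8, 12.8 ± 6.47 and 10.4 ± 3.23 CPM. For both treated groups together, 5 of the 25, these 4 among them, did not overlap with saline and were lower, as were 2.66% of all tested genes. Leaving out saline tumor 3 moved *Aurkb* from -1.39 to -0.50 in i.v. TLZ and from -1.66 to -0.76 in NanoTLZ, and *Hmmr* from -1.63 to -0.92 and from -1.93 to -1.20, on the log2 scale. Without saline tumor 3 all 25 were still lower in both treatments, but the medians were -0.52 and -0.85, and 4 of 25 in each comparison passed an unadjusted p of 0.05. Of all genes tested without that tumor, 46.7% and 48.9% were lower, and 9.54% and 6.66% passed an unadjusted p of 0.05 in either direction.

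**Figure D3:**
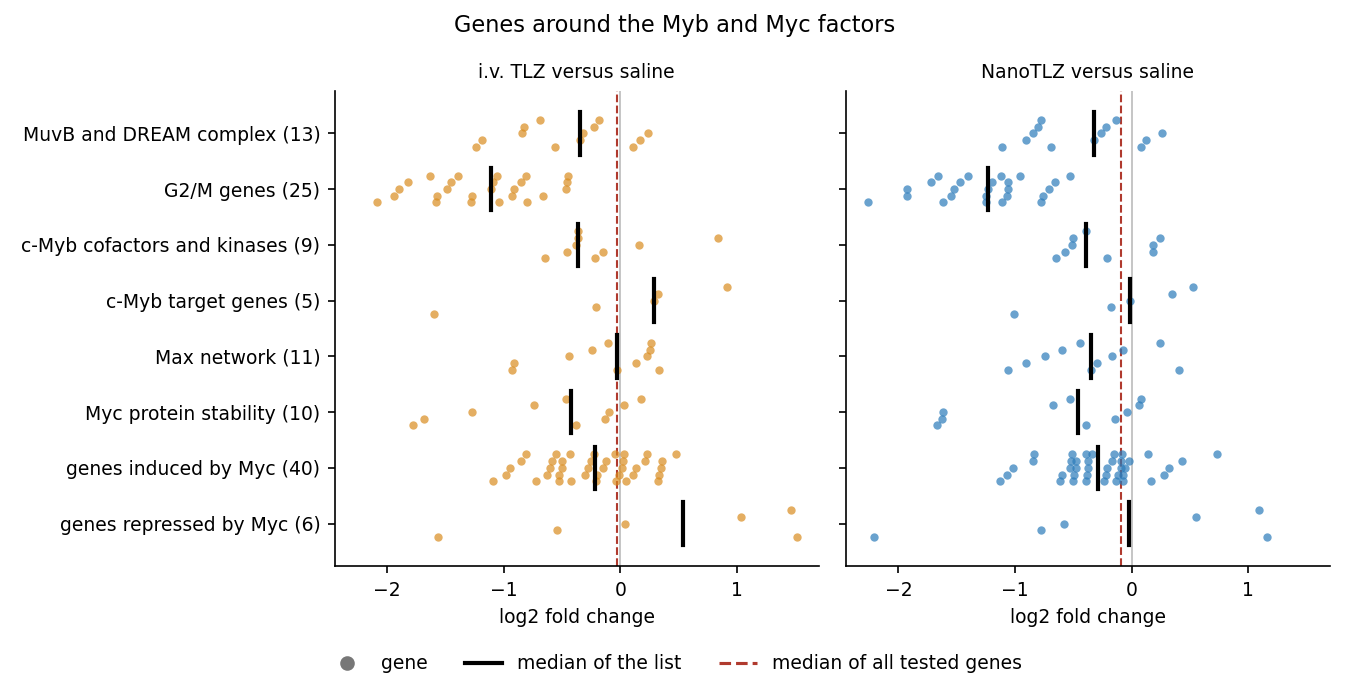
Log2 fold changes against saline of the genes in 8 lists around the Myb and Myc factors, with the number of tested genes in brackets. Points are genes, black lines list medians and the dashed line the median of all tested genes (-0.03 for i.v. TLZ, -0.09 for NanoTLZ). All 25 G2/M genes lie below 0 in both panels.

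*Myc* did not separate the groups. It had 110, 86.4 and 204 CPM in saline, 88.4, 149 and 144 CPM in i.v. TLZ, and 140, 103 and 133 CPM in NanoTLZ tumors. Saline tumor 3 was highest and saline tumor 2 lowest, so that all treated tumors lay inside the saline range. The log2 fold change was -0.07 (SE 0.36, adjusted p = 0.961) in i.v. TLZ and -0.09 (SE 0.36, adjusted p = 0.955) in NanoTLZ, and without saline tumor 3 it was 0.39 (SE 0.31) and 0.38 (SE 0.31). A p that misses the threshold does not show that the levels were equal.

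The 40 genes induced by Myc, mostly ribosome assembly factors, had a log2 fold change below 0 for 27 of 40 in i.v. TLZ and 34 of 40 in NanoTLZ, against 52.4% and 56.1% of all tested genes, with medians of -0.22 and -0.29. None was called by edgeR, DESeq2 or limma-voom, and edgeR had 3 and 4 lower at an unadjusted p under 0.05, against 5.47% and 5.49% of all tested genes. *Npm1*, a nucleolar chaperone, had 658 ± 251 CPM in saline, 308 ± 83.5 with i.v. TLZ and 323 ± 61.6 with NanoTLZ (SD, n = 3), with a log2 fold change of -1.06 (SE 0.30, adjusted p = 0.284) in both treated groups together. *Wdr12*, a ribosome assembly factor, had 46.7 ± 9.84, 32.3 ± 4.52 and 30.9 ± 1.78 CPM, with a log2 fold change of -0.56 (SE 0.22, adjusted p = 0.338). These were the 2 genes of the list whose treated tumors were all below the saline tumors. Leaving out saline tumor 3, 21 and 26 of the 40 were lower, with medians of -0.02 and -0.07. Of all genes tested without that tumor, 46.7% and 48.9% were lower, with medians of 0.05 and 0.01.

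Of 6 genes repressed by Myc, *Cdkn1a* and *Gadd45a*, which are also targets of p53 after DNA damage, were higher in every treated tumor than in every saline tumor, as were 2.81% of all tested genes. *Cdkn1a*, encoding the inhibitor p21, had 47.5 ± 2.54 CPM in saline, 97.4 ± 27.2 with i.v. TLZ and 69.4 ± 10.6 with NanoTLZ (SD, n = 3), with log2 fold changes of 1.03 (SE 0.27, adjusted p = 0.417) and 0.55 (SE 0.27, adjusted p = 0.568). *Gadd45a*, a stress sensor, had 10.5 ± 6.65, 28.8 ± 2.45 and 23.4 ± 6.62 CPM, with log2 fold changes of 1.46 (SE 0.53, adjusted p = 0.443) and 1.16 (SE 0.52, adjusted p = 0.559). The list as a whole went both ways, with 4 of 6 higher in i.v. TLZ and 3 of 6 in NanoTLZ and medians of 0.54 and -0.02. None was called by edgeR, DESeq2 or limma-voom, and at an unadjusted p under 0.05 edgeR had 3 higher in i.v. TLZ, and 0 higher and 1 lower in NanoTLZ, where 4.91% of all tested genes were higher in i.v. TLZ, and 3.51% higher and 5.49% lower in NanoTLZ. Leaving out saline tumor 3 gave medians of 1.02 and 0.62.

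The Max network list held 11 genes, most of them for proteins that pair with Max or its relative Mlx and compete with or complement Myc. Of these 11, 6 were lower in i.v. TLZ and 9 in NanoTLZ, with medians of -0.03 and -0.35. Over all tested genes 52.4% and 56.1% were lower. *Mlxip*, the glucose-sensing partner of Mlx, had 232 ± 28.3 CPM in saline, 122 ± 17.3 with i.v. TLZ and 139 ± 30.9 with NanoTLZ (SD, n = 3), without overlap between treated and saline tumors (2.66% of all tested genes), and a log2 fold change of -0.84 (SE 0.22, adjusted p = 0.279) for both. Of 10 genes that set the stability of the Myc protein, 8 were lower in each treatment, with medians of -0.42 and -0.46 and the same shares over all tested genes. *Aurka* and *Plk1* of this list are also in the G2/M list. Genes that turn Myc over and genes that shield it are both included, so the count gives no direction for Myc stability. *Skp2*, a ubiquitin ligase subunit that turns Myc over, had 58.9 ± 43.0, 17.2 ± 5.87 and 18.5 ± 2.6 CPM, and *Cip2a*, which shields Myc from PP2A, had 70.9 ± 30.2, 22.2 ± 11.0 and 22.9 ± 5.74 CPM. For both treated groups together their log2 fold changes were -1.72 (SE 0.42, adjusted p = 0.272) and -1.65 (SE 0.38, adjusted p = 0.271). DESeq2 called these 2 genes there, and 1.71% of all genes it gave an adjusted p. Leaving out saline tumor 3 the edgeR log2 fold changes of *Skp2* and *Cip2a* were -0.95 (SE 0.35) and -1.50 (SE 0.43). No gene of either list was called by edgeR, which had 1 of 11 and 3 of 10 lower at an unadjusted p under 0.05 in each treatment, against 5.47% and 5.49% of all tested genes.

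*Mycn* was the transcript with the largest range in saline tumors. It had 3.6, 0.429 and 18.4 CPM in saline, 1.07, 0.601 and 0.379 CPM in i.v. TLZ, and 2.6, 6.17 and 2.02 CPM in NanoTLZ tumors. Saline tumors thus held both the highest and nearly the lowest level, and the i.v. TLZ tumors, with 7 to 22 counts, lay below all NanoTLZ tumors. In i.v. TLZ the mean was 10.9-fold below saline, with a log2 fold change of -3.44 (SE 1.13, unadjusted p = 0.0122, adjusted p = 0.436). DESeq2 fitted to all 9 tumors called it (adjusted p = 0.0378) and fitted to the 2 groups did not (0.096), and over 17 alternatives the adjusted p ranged from 0.0378 to 0.779. In NanoTLZ the log2 fold change was -1.06 (SE 1.02, adjusted p = 0.75). With saline tumor 3 left out the values were -1.53 in i.v. TLZ and 0.87 in NanoTLZ, so the sign in NanoTLZ depended on that tumor.

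*Mycl* was high in a single tumor. It had 3.78, 8.01 and 8.67 CPM in saline, 8.0, 3.77 and 38.1 CPM in i.v. TLZ, and 7.08, 7.04 and 5.90 CPM in NanoTLZ tumors. i.v. TLZ tumor 3 was 4.40-fold above the next tumor, and the other 8 tumors lay between 3.77 and 8.67 CPM. The log2 fold change in i.v. TLZ was 1.28 (SE 0.74, adjusted p = 0.555) with that tumor and -0.20 (SE 0.53, adjusted p = 0.923) without it. In NanoTLZ it was -0.03 (SE 0.73, adjusted p = 0.993), and 0.20 (SE 0.83) without saline tumor 3. Neuroendocrine markers, which accompany *Mycl* and *Mycn* in neuroendocrine tumors, were near 0. Their sum was 0.436 to 1.59 CPM over the 9 tumors, 1.08 CPM in i.v. TLZ tumor 3 and 0.869 CPM in saline tumor 3, only *Chga* of the 6 passed the filter, and *Neurod1* had no count.

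edgeR called none of the 6 genes in any of the 4 comparisons, in which it called 0.0% of all tested genes in i.v. TLZ versus saline, 0.00632% in NanoTLZ versus saline, 0.0% in NanoTLZ versus i.v. TLZ and 0.019% in both treated groups versus saline. The genes called were *Col2a1* in NanoTLZ, and *Col2a1*, *Myh4* and *Myl1* in both treated groups together. At an unadjusted p under 0.05, edgeR had 2 of the 6 genes in i.v. TLZ (*Myb* and *Mycn*), 1 in NanoTLZ (*Myb*), 0 between the treatments and 2 in both treated groups (*Myb* and *Mycn*), all lower. In either direction this was so for 10.4%, 8.99%, 1.68% and 13.1% of all tested genes, and the lower ones were 5.47%, 5.49% and 8.29% against saline. DESeq2 on all 9 tumors called 1, 1, 0 and 1 of the 6 genes in these comparisons, and 1.13%, 0.55%, 0.0119% and 1.71% of the genes it gave an adjusted p. On the 2 groups it called 0 of the 6 in i.v. TLZ and 1 in NanoTLZ, and 0.506% and 0.949% of all genes. limma-voom called 0 of the 6. Groups did not overlap for *Myb* and *Mybl1* in NanoTLZ versus saline, both lower, as for 8.13% of all tested genes (15.9% in either direction), and for *Mycn* in NanoTLZ versus i.v. TLZ, higher, as for 3.2%. With i.v. TLZ and with both treated groups, all 6 genes overlapped with saline, whereas 11.2% and 5.47% of all tested genes did not. Both treatments share the saline tumors, so their values are not independent. Side by side, for i.v. TLZ and NanoTLZ, the log2 fold changes were -2.48 and -3.36 for *Myb*, 0.09 and -0.88 for *Mybl1*, -0.40 and -0.67 for *Mybl2*, -0.07 and -0.09 for *Myc*, -3.44 and -1.06 for *Mycn*, and 1.28 and -0.03 for *Mycl*.

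**Figure D4:**
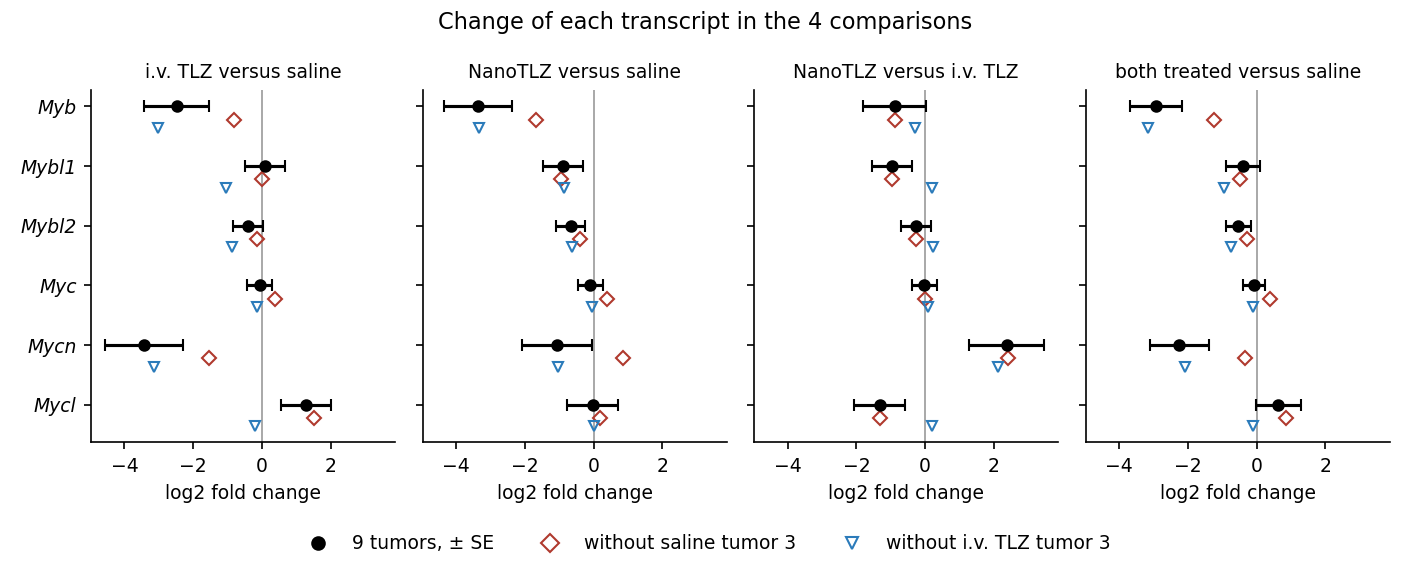
Log2 fold change of each gene in 4 comparisons. Black points with bars give the value of all 9 tumors ± SE, open diamonds the value without saline tumor 3 and open triangles the value without i.v. TLZ tumor 3. *Myb* moves from -2.48 to -0.81 in i.v. TLZ without saline tumor 3, and *Mycl* from 1.28 to -0.20 without i.v. TLZ tumor 3.

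NanoTLZ and i.v. TLZ carry the same drug at the same dose, and the direct comparison between them left wide margins. *Mycn* was 5.21-fold higher in NanoTLZ (log2 fold change 2.38, SE 1.09, unadjusted p = 0.0538, adjusted p = 0.9999), with values from 1.77 to 2.86 over 17 alternatives and an adjusted p between 0.21 and 1.0. The difference was -1.32 (SE 0.74) for *Mycl*, -0.97 (SE 0.58) for *Mybl1*, -0.88 (SE 0.92) for *Myb*, -0.27 (SE 0.43) for *Mybl2* and -0.02 (SE 0.36) for *Myc*, each with an adjusted p of 0.9999. Without i.v. TLZ tumor 3 it was 0.20 for *Mycl*, 0.20 for *Mybl1* and 0.24 for *Mybl2*, of the opposite sign. The G2/M list had a median difference of -0.07 with all tumors and 0.44 without i.v. TLZ tumor 3.

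Over the 9 tumors of the 3 groups together, *Mybl2* was correlated with the G2/M genes. Values pooled in this way mix differences between groups with those between tumors of a group, and the permutations exchanged tumors across groups. The mean log2 CPM of the 25 genes was 6.0, 5.24 and 6.65 in saline, 4.09, 4.82 and 5.53 in i.v. TLZ, and 4.97, 4.68 and 4.95 in NanoTLZ tumors. For *Mybl2*, r was 0.818 (exact permutation p = 0.00502, adjusted p = 0.0201 over 4 relations) and rho 0.80 (exact p = 0.0138, adjusted p = 0.0276), and r was 0.711 without the 2 tumors farthest from the median *Mybl2* level. For *Mybl1* with the same mean, r was 0.626 (exact p = 0.072, adjusted p = 0.072) and rho 0.833 (exact p = 0.00827, adjusted p = 0.0276), with r = 0.685 without its 2 farthest tumors. *Myc* with the mean of the 40 induced genes had r = 0.688 (exact p = 0.0391, adjusted p = 0.0665) and rho = 0.40 (exact p = 0.291, adjusted p = 0.291), with r = 0.527 without its 2 farthest tumors. *Myb* with the T and NK cell mean had r = -0.651 (exact p = 0.0499, adjusted p = 0.0665) and rho = -0.617 (exact p = 0.0857, adjusted p = 0.114), with r = -0.51 without its 2 farthest tumors. Within the 6 treated tumors the 4 values of r were 0.71, 0.861, 0.678 and -0.472, with adjusted p of 0.205, 0.117, 0.205 and 0.343 by exact permutation, so no relation passed there. Without the 2 farthest tumors of each relation, r within the treated tumors was 0.361, 0.741, 0.513 and -0.39. The 3 saline tumors were too few for a value of their own. The gene and the list of each relation were read in the same libraries.

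As a description over the same 9 tumors, the median r with the 25 G2/M genes was 0.854 for *Myb*, 0.747 for *Mybl2*, 0.639 for *Mybl1*, 0.579 for *Myc*, 0.41 for *Mycn* and 0.11 for *Mycl*, where the median over all tested genes was between -0.0169 and 0.0147. Without saline tumor 3 it was 0.842 for *Myb*, 0.744 for *Mybl1*, 0.672 for *Mybl2*, 0.284 for *Myc* and 0.00241 for *Mycn*. The 3 Myb family transcripts thus kept a median r above 0.6 with the mitotic genes over 8 tumors, whereas those of *Myc* and *Mycn* were lower without saline tumor 3.

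**Figure D5:**
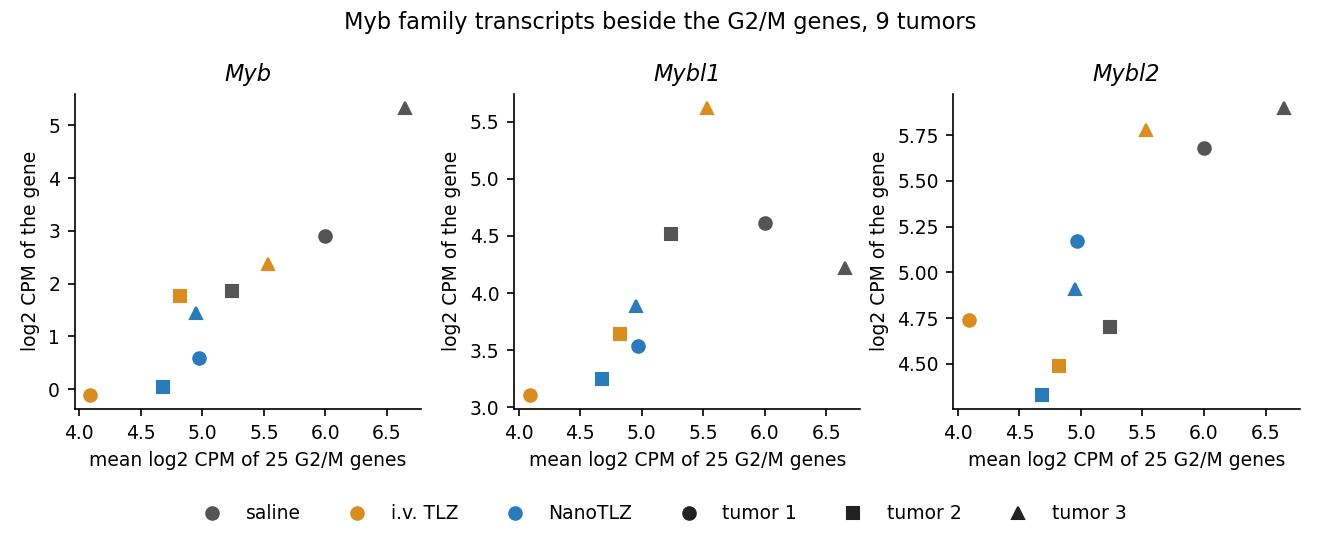
Log2 CPM of *Myb*, *Mybl1* and *Mybl2* against the mean log2 CPM of the 25 G2/M genes, 1 point per tumor, with colors for groups and shapes for the tumor number. *Mybl2* has r = 0.818 and *Mybl1* r = 0.626 over the 9 tumors, and in *Mybl1* the tumor farthest right, saline tumor 3, is not the highest.

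The genes most like each member, by Pearson correlation of log2 CPM over the 9 tumors, were found among all tested genes. For *Myb* they were *Plk1*, the mitotic kinase (r = 0.975), *Etaa1*, an activator of ATR (0.972), and *Hmmr* (0.97). *Plk1* had 37.6, 20.7 and 87.5 CPM in saline, 11.8, 24.5 and 24.1 CPM in i.v. TLZ, and 17.8, 13.3 and 16.5 CPM in NanoTLZ tumors. Over the 8 tumors other than saline tumor 3 these r were 0.933, 0.923 and 0.939, for genes picked over all 9. *Mybl1* was most like *Pcgf3*, a Polycomb subunit (0.944), *9430037G07Rik* (0.917) and *Cdca8*, which encodes the passenger protein borealin (0.912). *Mybl2* was most like *Map3k2* (0.965), *Raph1* (0.963) and *Ehmt1*, a histone methyltransferase (0.958). *Myc* was most like *Spin1*, a reader of histone methylation (0.97), *Txndc5* (0.964) and *Isca1* (0.96), and *Mycn* like *Calcrl* (0.953) and *Mettl14* (0.929). *Mycl* was most like *Fam81a* (0.948), *Sdhd* (0.936) and *Jpt1* (0.909). Over the 8 tumors other than i.v. TLZ tumor 3, the highest for *Mycl*, these last 3 values were 0.877, 0.879 and 0.639. Among the members themselves the highest r was 0.753, between *Myb* and *Mybl2*, and without saline tumor 3 it was 0.831, between *Myb* and *Mybl1*. *Mycn* and *Mycl* had an r of -0.293. These values were the highest of 15821 genes over few tumors that share their libraries, and they are given as a description.

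Genes beside the members on the chromosome were also read. *Hbs1l*, 135 kb from *Myb*, was the nearest tested gene after it in coordinates. It had 75.8, 65.2 and 105 CPM in saline, 44.6, 39.0 and 72.5 CPM in i.v. TLZ, and 34.3, 41.7 and 39.1 CPM in NanoTLZ tumors. Its log2 fold change was -0.66 (unadjusted p = 0.0583, adjusted p = 0.493) in i.v. TLZ and -1.10 (unadjusted p = 0.00536, adjusted p = 0.552) in NanoTLZ. Its r with *Myb* was 0.851. *Ahi1*, 44.5 kb from *Myb* on the other side, was 21.8 CPM in saline tumor 3 and 2.46 to 9.46 CPM in the other tumors. Its log2 fold change was -0.56 (unadjusted p = 0.458, adjusted p = 0.811) in i.v. TLZ and -1.59 (unadjusted p = 0.0583, adjusted p = 0.563) in NanoTLZ. Its r with *Myb* was 0.787. *Pvt1*, the long noncoding RNA next to *Myc*, 47.6 kb away, had 3.49, 9.01 and 13.7 CPM in saline and 5.09 to 14.8 CPM in treated tumors, with log2 fold changes of -0.02 and -0.28 and an r of 0.569. *Fam84b*, the nearest tested gene on the other side of *Myc*, lay 1130 kb away. It had 103, 72.2 and 78.9 CPM in saline and 26.9 to 79.0 CPM in treated tumors. In edgeR its log2 fold changes were -0.75 (adjusted p = 0.513) and -1.16 (unadjusted p = 0.0121, adjusted p = 0.552), and its r with *Myc* was 0.311. For the 8 neighbors of the other 4 genes, r with the member lay between -0.0756 and 0.604, and the unadjusted p of every comparison was above 0.2. The antisense gene *Gm26577*, which overlaps *Myb* on the other strand, had 4 counts in all, and since the strand of counting was not stated, its reads and those of *Myb* cannot be told apart.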

How the data were processed

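RNA of 9 tumors, 3 per group, was sequenced, and the authors deposited 1 table of raw read counts per Ensembl gene, with no normalization. The submitters' processing notes name TopHat2, DESeq2 and the build mm10, without versions or roles. DESeq2 was the authors' tool for differential expression according to their methods. The counting program, annotation and strand are not given in the sources used here. Reads shared with related genes could therefore be assigned in ways that cannot be checked. Of 35275 genes, 34490 were matched to a symbol in GENCODE M21, and 9792 had no count in any tumor. Total counts per tumor had a median of 19747343. The smallest counts limit precision most, as for *Mycn* in i.v. TLZ.

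Groups were taken from the labels, which give no batch. edgeR 4.0.16 in R 4.3.3 was used with TMM factors. Genes were kept by filterByExpr with a minimum count of 10 and a minimum total of 15, which left 15821. A quasi-likelihood F-test was fitted to all 9 tumors with 1 coefficient per group, and p-values were adjusted over all tested genes by Benjamini-Hochberg with a threshold of 0.05. CPM is the count scaled to library size after TMM, and log2 CPM for correlations used a prior count of 2. Treated tumors as 1 group are the mean of both drug coefficients. SE in the edgeR fits is the absolute log2 fold change divided by the square root of the F statistic. The alternatives were DESeq2 1.42.0, limma-voom (limma 3.58.1), fits to 2 groups, other normalizations and filters, and leaving out each tumor. The edgeR, DESeq2 and limma-voom fits were tested on simulated counts. Correlations were tested by two-sided exact permutation over tumors. Tables, permutations and figures were made in Python 3.11.15 (scipy 1.17.1, pandas 2.3.3, numpy 2.4.6, matplotlib 3.10.9).

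The 6 genes, the lists and the marker genes were chosen with earlier results of these data known, so they are not independent evidence. Within each list, up to 4 genes were named, those with the largest absolute log2 fold change of treated versus saline among genes whose treated and saline tumors did not overlap, as were the nearest tested genes beside each member and any gene called by edgeR, and the 3 genes most like each member were named by r, except 1 that is not reported here. Genes that a tool called in counts of 5 or fewer were named after their values were seen. Markers of B and plasma cells, myeloid cells, mast cells, fibroblasts, endothelial cells and adipocytes were also summed and are given in the closing section. Promoter sequences are from RefSeq, GRCm38.p6, and those of *Mybl1* and *Myc* are not shown. Leaving out saline tumor 3 and i.v. TLZ tumor 3 together and the motif TTGGCG were added after seeing the data.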

Additional observations from a re-analysis of the deposited data

How the results depend on the processing

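Of 416 log2 fold changes of the 6 genes under the alternatives, 4 passed the threshold and 38 had the opposite sign, and 12 of the 24 combinations of gene and comparison never changed sign. DESeq2 on all 9 tumors gave the calls of *Mycn* in i.v. TLZ (-3.45), *Myb* in NanoTLZ (-3.34) and *Myb* in both treated groups (-2.90), and DESeq2 on the 2 groups that of *Myb* in NanoTLZ (-3.34).

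No paired analysis was possible because the labels give the tumors no replicate numbers that the groups share, and no fit with a replicate block was made.

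The number of genes called over the whole table depended on the tool. DESeq2 on all 9 tumors called 195 in i.v. TLZ, 100 in NanoTLZ, 3 between the treatments and 277 in both treated groups, and DESeq2 on the 2 groups 91, 166 and 15. Without a filter on low counts edgeR called 5, 6 and 33 in i.v. TLZ, NanoTLZ and both. It called 0 in NanoTLZ when fitted to the 2 groups or without saline tumor 3 and i.v. TLZ tumor 3 together. In both treated groups, limma-voom called 1, a minimum of 10 counts in every tumor left 1, and leaving out both tumors left 0. Leaving out each tumor gave 0 to 3 in NanoTLZ and 0 to 18 in both treated groups. Of the lists, DESeq2 on all 9 tumors called 2 G2/M genes and 1 c-Myb target in i.v. TLZ, and 4 G2/M genes (*Cenpe*, *Top2a*, *Hmmr* and *Mki67*), 1 c-Myb target and 2 genes of Myc protein stability in both treated groups. On the 2 groups it called 1 G2/M gene and 1 c-Myb target in i.v. TLZ and 1 G2/M gene in NanoTLZ, and edgeR without a filter called 1 G2/M gene in both treated groups.

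Signs turned as follows. With limma-voom, *Mybl1* in i.v. TLZ was -0.34, *Mycn* and *Mycl* in NanoTLZ 0.03, and *Myc* between the treatments 0.0. With upper quartile normalization *Mycl* in NanoTLZ was 0.04 and *Myc* between the treatments 0.01, and without a filter the latter was 0.0. Without saline tumor 3 and i.v. TLZ tumor 3 together, *Mybl1* in i.v. TLZ was -1.15, *Myc* 0.30 in i.v. TLZ, 0.39 in NanoTLZ and 0.34 in both, and *Mycn* and *Mycl* in NanoTLZ 0.87 and 0.20. Between the treatments, *Mybl1*, *Mybl2*, *Myc* and *Mycl* were then 0.20, 0.24, 0.09 and 0.20. The cause was not tested.

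Leaving out each tumor moved *Mybl1* in i.v. TLZ from -1.05 to 0.49, *Myc* in i.v. TLZ from -0.30 to 0.39, in NanoTLZ from -0.32 to 0.38 and in both from -0.31 to 0.39, *Mycl* in i.v. TLZ from -0.20 to 1.76, in NanoTLZ from -0.29 to 0.20 and in both from -0.10 to 0.86, and *Mycn* in NanoTLZ from -1.66 to 0.87. Between the treatments the ranges were -1.37 to 0.20 for *Mybl1*, -0.51 to 0.24 for *Mybl2*, -0.22 to 0.12 for *Myc* and -1.79 to 0.20 for *Mycl*. In i.v. TLZ they ran from -0.72 to -0.33 for MuvB and DREAM genes, from -1.58 to -0.52 for G2/M genes, from -0.07 to 0.15 for the Max network, from -0.72 to -0.23 for Myc protein stability and from 0.42 to 1.02 for genes repressed by Myc. In NanoTLZ they ran from -0.54 to -0.24 for MuvB and DREAM genes, from -0.44 to 0.10 for c-Myb cofactors, from -0.45 to -0.19 for the Max network and from -0.33 to -0.07 for genes induced by Myc. Between the treatments they ran from -0.15 to 0.49 for c-Myb targets, from -0.34 to -0.01 for the Max network and from -0.53 to -0.17 for genes repressed by Myc, and in both treated groups from -0.43 to -0.04 for c-Myb cofactors, from -0.26 to -0.03 for the Max network and from 0.20 to 0.83 for genes repressed by Myc. The median of the Max network in i.v. TLZ was 0.14 without both tumors, that of the genes repressed by Myc 1.07 in i.v. TLZ, 0.62 in NanoTLZ and 0.86 in both, that of the genes induced by Myc in NanoTLZ -0.07, and that of the c-Myb targets between the treatments 0.26 with limma-voom. The relation of *Mybl2* with the G2/M genes was 0.71 within the 6 treated tumors, and that of *Mybl1* passed by rank (rho = 0.833).

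With 3 tumors per group and a biological coefficient of variation of 49.8%, the SE of a log2 fold change of the 6 genes was 0.31 to 1.13, and for *Myb* and *Mycn* the lowest counts per tumor were 17 and 7.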

Other observations

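Cell types other than epithelium differed in level between the tumors in which the Myb and Myc genes were read. Myeloid markers summed to 437 to 2200 CPM in saline, 1380 to 2660 CPM in i.v. TLZ and 3000 to 4140 CPM in NanoTLZ tumors, and B and plasma cell markers to 2.86 to 8.86, 3.28 to 107 and 8.29 to 140 CPM. Fibroblast markers summed to 1040 to 1730, 853 to 5030 and 1420 to 2640 CPM, endothelial markers to 54.0 to 106, 48.2 to 120 and 107 to 131 CPM, adipocyte markers to 8.58 to 31.6, 5.57 to 12.5 and 6.21 to 62.1 CPM, and mast cell markers to 1.0 to 2.42, 0.164 to 0.823 and 0.600 to 3.37 CPM. Within the myeloid sum, *Lyz2* alone had 192 to 1570 CPM in saline and 2260 to 3640 CPM in NanoTLZ tumors, and the mean log2 CPM of the myeloid list overlapped between these groups, at 4.13 to 6.92 and 6.38 to 7.07. Their part in the levels of the 6 genes was not tested.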
